A study of Mus musculus with 8 samples.

Results

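The collagen chain genes are the rows of the liver RNA-Seq table whose symbol is Col, a number, the letter a and a number, and 38 of the 17810 genes listed met this rule. Each was placed in a class by the protein it encodes: 10 fibrillar, 9 basement membrane, 7 FACIT, 8 network and 3 transmembrane collagens, with Col28a1 left unclassed. Of the 38, 21 had enough counts to be tested and 17 did not. Another 7 chain genes of these classes (Col2a1, Col6a4, Col9a1, Col9a2, Col17a1, Col21a1 and Col26a1) were not analysed here.

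Bulk RNA was measured in 8 livers, 4 from WT and 4 from HKO mice. The mice were males, 5 months old, and had eaten CD-HFD, a diet rich in fat and without choline, for the last 3 months, starting at 8 weeks. HKO mice carry loxP-flanked miR-33 alleles that Albumin-Cre removes; the albumin promoter is active in hepatocytes, and whether Cre also acted in cholangiocytes was not tested. All 8 mice received the diet, so no liver shows the level of a collagen on chow. Each library is 1 liver and held 12174339 to 18735785 counts.

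Collagens are secreted or membrane-bound proteins built from 3 chains wound into a triple helix. Fibrillar collagens form the tensile fibers that accumulate in a fibrotic liver. Basement membrane collagens form the sheets under epithelium and endothelium or attach to them. FACIT collagens decorate the surface of fibrils, and network collagens form beaded filaments and lattices. In the liver the fibrillar chains are made mainly by stellate cells and portal fibroblasts, and also by mesothelial cells, rather than by hepatocytes. In a bulk sample, fewer cells of such a type and less RNA per cell cannot be told apart.

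The microRNA deleted in HKO hepatocytes is shown with its seed (bases 2 to 8) in capitals, because the seed decides which letters of a transcript can pair with it. The mature sequence comes from RefSeq (GRCm38.p6, chr15:82198127-82198147, plus strand).
mmu-miR-33-5p: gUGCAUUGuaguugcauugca

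The longest annotated 3' untranslated region of each member (GENCODE M21, GRCm38) was searched on the transcript strand for CAATGCA, the complement of the seed, and for AATGCAA, the same match shifted by 1 base and followed by A. A match was present in 2 of the 21 tested members, Col3a1 and Col12a1, and in 1 member that was not tested, Col19a1. Over all tested genes with such a region of at least 50 bases the share was 16.2% (1874 of 11536). The windows are given 5' to 3' with the match in capitals. They lie at chr1:45349471-45349499 (plus strand) for Col3a1 and at chr9:79600119-79600147 (minus strand) for Col12a1. The Col12a1 window holds 3 overlapping matches, and only the first of them is in capitals.
Col3a1: ttcaagccataAATGCAAagtatctatat
Col12a1: ttggaacaccgCAATGCAatgcatctatt

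The chains of the principal liver fibrils fell furthest. Of the 21 tested members, 7 were lower in HKO livers at an adjusted p under 0.05 (edgeR's quasi-likelihood test, Benjamini-Hochberg over 12395 genes): Col1a1, Col1a2, Col3a1, Col5a2, Col15a1, Col12a1 and Col6a1. Over all tested genes 3.44% were called lower. None of the 21 was called higher by edgeR, where 1.71% of all tested genes were. At an unadjusted p under 0.05 edgeR had 13 members lower and 1 higher, Col13a1, and among adjusted calls DESeq2 had 1 member higher and limma-voom 0. The share of all tested genes at the unadjusted threshold was not computed. The shares of 3.44% and 1.71% are therefore no background for unadjusted counts, here or in the lists below. Of all genes, edgeR called 426 lower and 212 higher, and scaling by total counts moved this split to 622 and 118.

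By direction alone, 19 of the 21 members had a negative log2 fold change, against 48.4% of all tested genes, and their median was -0.65 against 0.01. The values of every HKO liver lay below those of every WT liver for 8 members, against 7.21% of all tested genes. The reverse separation occurred for 0 of the 21 members and for 5.36% of all tested genes. The plot of fold changes by class shows the order within each class.

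**Figure D1:**
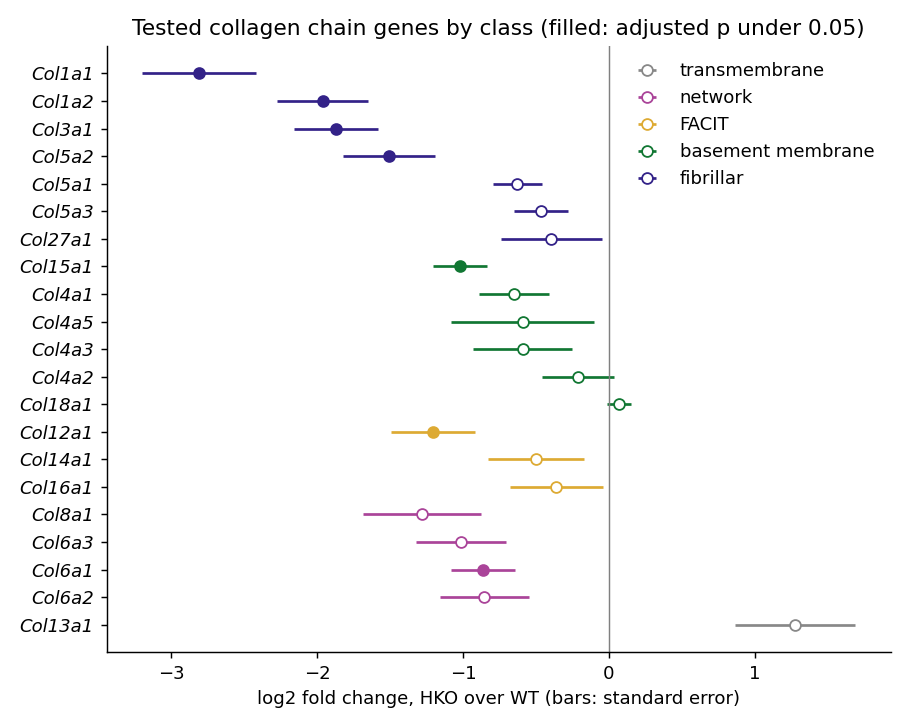
The log2 fold change, HKO over WT, of the 21 tested collagen chain genes (4 livers per genotype, bars are the standard error, filled points have an adjusted p under 0.05), grouped by class. The 4 filled fibrillar chains lie from -2.81 to -1.51, Col18a1 lies at 0.07 and Col13a1 at 1.28.

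In the fibrillar class, 7 of 10 members were tested, 4 were called lower, and all 7 tested had a negative log2 fold change, with a median of -1.51. Col1a1 (chr11:94936224-94953042, plus strand), which encodes the α1 chain of type I collagen, had 26.9, 10.3, 11.5 and 17.8 CPM (counts relative to the library total, scaled by TMM) in WT livers 1 to 4 and 1.96, 3.40, 2.70 and 1.28 CPM in HKO livers 1 to 4. The groups did not overlap, and the highest HKO liver was well under the lowest WT liver. The means were 16.6 ± 7.56 and 2.33 ± 0.918 CPM (SD, n = 4 each), a log2 fold change of -2.81 (SE 0.39, adjusted p = 0.00755, edgeR).

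Col1a2 (chr6:4505618-4541543, plus strand), the α2 chain of the same fiber, had 41.3, 17.2, 22.2 and 34.3 CPM in WT livers and 6.61, 9.42, 8.23 and 5.11 CPM in HKO livers. WT livers 1 and 4 were the highest and the groups did not overlap. Its log2 fold change was -1.96 (SE 0.31, adjusted p = 0.0131, edgeR).

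Col3a1 (chr1:45311538-45349706, plus strand), whose product forms type III collagen, the fine reticular fiber that accompanies type I, was the most abundant fibrillar chain in WT livers per exon length. Its values were 95.7, 48.0, 57.9 and 83.5 CPM in WT livers and 17.6, 27.3, 19.6 and 13.4 CPM in HKO livers. Again WT livers 1 and 4 stood highest and no HKO liver reached a WT liver. On the log2 scale the difference was -1.87 (SE 0.29, adjusted p = 0.0142, edgeR).

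Col5a2 (chr1:45374331-45503282, minus strand) encodes a chain of type V collagen, which sits inside type I fibrils and limits their width, and lies 24.6 kb from the end of Col3a1 on the opposite strand. It had 7.36, 2.65, 6.96 and 6.44 CPM in WT livers and 2.09, 2.70, 1.46 and 2.04 CPM in HKO livers. The groups overlapped, since WT liver 2 lay within the HKO values while the other 3 WT livers were far above them. The log2 fold change was -1.51 (SE 0.31, adjusted p = 0.0195, edgeR), and the call was lost without WT replicate 1 (adjusted p = 0.0592), without HKO replicate 4 (adjusted p = 0.0558) and with limma-voom (adjusted p = 0.0616).

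**Figure D2:**
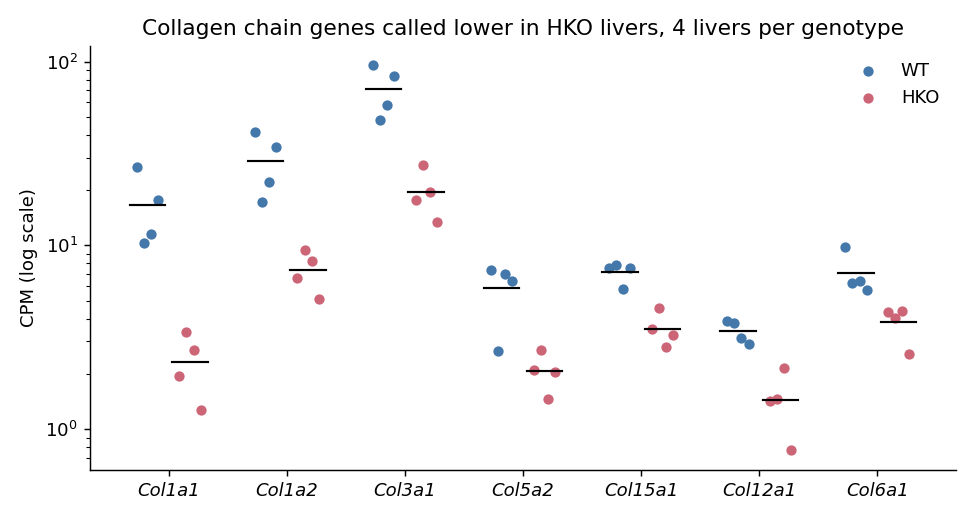
CPM (log axis) of the 7 collagen chain genes called lower in HKO livers, with 1 point per liver, 4 livers per genotype, and a black line at the mean. The groups are apart for 6 genes, and for Col5a2 1 WT liver, at 2.65 CPM, lies below the highest HKO liver, at 2.70 CPM.

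The other tested fibrillar chains did not pass the test. Col5a1, the partner of Col5a2 in type V collagen, spanned 5.65 to 7.77 CPM in WT and 3.40 to 4.79 CPM in HKO. The groups did not overlap, yet the log2 fold change of -0.63 had an adjusted p of 0.0533 by edgeR; DESeq2 gave 0.0292 and limma-voom 0.0603. Col5a3, a further type V chain, stood at -0.47 on the log2 scale (adjusted p = 0.189, edgeR) and Col27a1 at -0.39 (adjusted p = 0.605, edgeR). Col24a1, Col11a2 and Col11a1 were not tested, with 44, 35 and 2 counts in all 8 livers together.

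The 2 chains of type I collagen did not keep the same proportion. Per kb of exon, the ratio of Col1a1 to Col1a2 was 1.23, 1.13, 0.985 and 0.979 in WT livers and 0.560, 0.683, 0.622 and 0.473 in HKO livers, so the groups did not overlap. The mean ratio in HKO livers was 0.540 times that in WT livers. For Col3a1 over Col1a2 the ratios of the genotypes overlapped, at 2.93 to 3.53 in WT and 3.01 to 3.67 in HKO. Col3a1 over Col1a1 did not overlap, at 2.382 to 3.355 in WT and 4.833 to 6.998 in HKO. Separation was not limited to these fibrillar chains. Col4a1 over Col4a2, of type IV collagen, was 2.015 to 3.385 in WT and 1.555 to 1.833 in HKO, also without overlap. These ratios are descriptions, without a test.

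Promoters from RefSeq (GRCm38.p6, 250 bases before to 50 after the start of transcription) were found for 31 of the 38 members and for 4 of the 7 called ones: Col1a2, Col3a1, Col15a1 and Col6a1. The promoters of Col1a2 and Col3a1, whose transcripts fell by similar amounts, are shown to set the letters beside each other. Capitals mark the CCAAT box (CCAAT), the GC box (GGGCGG) and the TATA box (TATAAA), each searched on both strands. They lie at chr6:4505368-4505667 and chr1:45311288-45311587, on the plus strand.
Col3a1: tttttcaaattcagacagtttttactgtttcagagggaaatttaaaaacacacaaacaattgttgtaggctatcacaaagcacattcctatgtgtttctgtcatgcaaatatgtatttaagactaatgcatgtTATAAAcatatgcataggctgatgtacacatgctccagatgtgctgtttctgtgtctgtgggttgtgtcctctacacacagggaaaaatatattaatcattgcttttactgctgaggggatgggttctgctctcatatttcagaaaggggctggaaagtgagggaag
Col1a2: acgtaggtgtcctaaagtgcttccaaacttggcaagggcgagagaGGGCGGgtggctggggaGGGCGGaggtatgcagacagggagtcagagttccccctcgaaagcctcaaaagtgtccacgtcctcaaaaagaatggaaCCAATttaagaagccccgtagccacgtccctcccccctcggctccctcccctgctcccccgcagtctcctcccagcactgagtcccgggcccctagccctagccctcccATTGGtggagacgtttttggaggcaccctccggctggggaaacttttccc

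The Col1a2 window holds 2 CCAAT boxes and 2 GC boxes and the Col3a1 window 1 TATA box, with no motif in common among these 3. Of all 32851 promoters of the same length, 37.4% held a CCAAT box, 35.7% a GC box and 13.6% a TATA box. Over the 33 windows of members, 10, 21 and 4 held them. A match to these letters is no measure of binding.

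Of the 9 basement membrane members, 6 were tested, 1 was called lower and 5 of 6 log2 fold changes were negative, with a median of -0.59. Col15a1 (chr4:47208012-47313165, plus strand) encodes a collagen that links basement membranes to the fibrils beneath them. It had 7.52, 7.82, 5.77 and 7.49 CPM in WT livers and 3.51, 4.55, 2.82 and 3.23 CPM in HKO livers. The groups did not overlap, WT liver 3 stood below the other WT livers, and the log2 fold change was -1.02 (SE 0.19, adjusted p = 0.0104, edgeR). The means were 7.15 ± 0.933 and 3.53 ± 0.741 CPM (SD, n = 4 each).

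Col18a1 (chr10:77052179-77166530, minus strand), the precursor of endostatin, is a collagen that hepatocytes themselves make. It was the most abundant member in both genotypes, per exon length 52.9 ± 3.42 CPM per kb in WT and 55.6 ± 2.15 in HKO livers (SD, n = 4 each). Its values were 394, 380, 373 and 338 CPM in WT livers and 373, 394, 385 and 409 CPM in HKO livers, and the groups overlapped. The log2 fold change was 0.07 (SE 0.08, adjusted p = 0.697, edgeR), and it was -0.02 with scaling by total counts. The deposited value was fractional in all 8 livers, as happens with this method where reads are divided between features.

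Col4a1 and Col4a2 encode the common chains of type IV collagen and start head to head on chromosome 8 (chr8:11198423-11312826, minus strand, and chr8:11312805-11449287, plus strand), with 22 bases of overlap. Col4a1 had 33.4, 30.7, 31.6 and 18.1 CPM in WT livers and 24.8, 14.4, 19.3 and 13.6 CPM in HKO livers. The groups overlapped because WT liver 4 was low, and the log2 fold change of -0.65 did not pass the test (SE 0.24, adjusted p = 0.180, edgeR). Col4a2 differed by -0.21 on the log2 scale (SE 0.25, adjusted p = 0.705, edgeR).

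Col4a3 and Col4a5, chains of the type IV collagen known from kidney, differed by -0.59 each on the log2 scale (adjusted p = 0.377 and 0.566, edgeR). Col4a5 was high in WT liver 1, at 3.31 CPM, and in HKO liver 2, at 3.09 CPM, and at 0.620 to 1.71 CPM in the others. Col4a4, Col4a6 and Col7a1 were not tested, with 39, 15 and 7 counts in all.

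Of the 7 FACIT members, 3 were tested and 1 was called. Col12a1 (chr9:79598987-79718722, minus strand), a long collagen that bridges fibrils, had 3.89, 3.77, 3.13 and 2.89 CPM in WT livers and 1.42, 1.47, 2.14 and 0.766 CPM in HKO livers. No HKO liver reached a WT liver, and the log2 fold change was -1.20 (SE 0.29, adjusted p = 0.0349, edgeR). This call depended on single livers: it remained in 2 of the 8 fits that left out 1 liver, those without WT replicate 4 and without HKO replicate 3, and the other 6 gave adjusted p values from 0.0579 to 0.117.

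Col14a1 (chr15:55307751-55520803, plus strand), which regulates fibril assembly and in WT livers stood next after Col18a1 per exon length, had 74.2, 47.6, 81.1 and 45.2 CPM in WT livers and 68.9, 27.6, 38.9 and 40.0 CPM in HKO livers. HKO liver 1 lay among the WT livers. On the log2 scale Col14a1 differed by -0.50 (SE 0.33, adjusted p = 0.473, edgeR). Col16a1, at -0.36, did not pass the test (adjusted p = 0.593, edgeR), and Col20a1, Col9a3, Col19a1 and Col22a1 were not tested, with 31, 10, 2 and 1 counts.

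**Figure D3:**
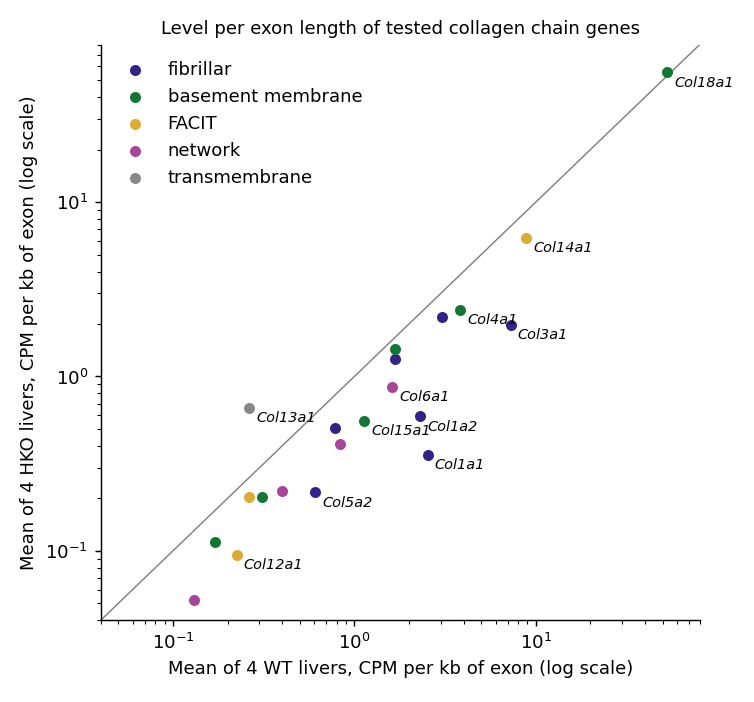
Mean CPM per kb of exon in 4 HKO livers against the mean in 4 WT livers for the 21 tested members (log axes, colored by class, the line marks equal levels). Col18a1 lies on the line at 52.9 and 55.6, Col13a1 lies above it, and Col1a1 lies furthest below it, at 2.53 and 0.356.

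Per exon length the order of the members therefore differed between the genotypes. In WT livers Col18a1, Col14a1 and Col3a1 led, at 52.9, 8.84 and 7.26 CPM per kb, and Col14a1 and Col3a1 differed by less than the spread between livers. In HKO livers Col3a1 was at 1.98 ± 0.595 CPM per kb (SD, n = 4) and stood in place 5, and Col1a1 went from place 6 to place 14. Exon length here is the union of annotated exons, which may exceed the transcripts present in liver.

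Of the 8 network members, 4 were tested, all 4 had a negative log2 fold change and 1 was called. Col6a1 (chr10:76708792-76726044, minus strand), a chain of the beaded filaments around cells, had 9.76, 6.28, 6.42 and 5.72 CPM in WT livers and 4.32, 4.01, 4.40 and 2.55 CPM in HKO livers. The groups did not overlap, and WT liver 1 and HKO liver 4 stood apart from the rest of their groups. The log2 fold change was -0.86 (SE 0.22, adjusted p = 0.0439, edgeR), and this call remained in 1 of the 8 fits without a liver, the one without WT replicate 4; the other 7 gave adjusted p values from 0.0602 to 0.132, and limma-voom gave 0.0576.

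Col6a3 (chr1:90766860-90843971, minus strand) and Col6a2 encode the partner chains of Col6a1. Col6a3 had 15.7, 5.93, 9.50 and 9.00 CPM in WT livers and 6.41, 4.09, 5.92 and 3.15 CPM in HKO livers. HKO liver 1 lay above WT liver 2, and the log2 fold change of -1.01 did not pass the test (SE 0.31, adjusted p = 0.101, edgeR); DESeq2 gave 0.0149 and limma-voom 0.137. Col6a2 differed by -0.85 on the log2 scale (SE 0.31, adjusted p = 0.141, edgeR), close to that of Col6a1.

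Col8a1, a chain of the lattice of vessel walls, spanned 0.698 to 1.41 CPM in WT and 0.255 to 0.507 CPM in HKO livers, which did not overlap. With 87 counts over all 8 livers, its log2 fold change of -1.28 had an SE of 0.40 and an adjusted p of 0.0943 (edgeR). Col6a6, Col8a2, Col6a5 and Col10a1 were not tested, with 39, 26, 11 and 4 counts.

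Of the transmembrane members, Col13a1 (chr10:61838234-61979108, minus strand), a collagen of cell adhesion sites, was the only one tested. It had 1.07, 0.907, 2.29 and 0.591 CPM in WT livers and 4.45, 2.70, 1.80 and 3.24 CPM in HKO livers. WT liver 3 and HKO liver 3 overlapped, and the log2 fold change of 1.28 did not pass the test (SE 0.41, adjusted p = 0.103, edgeR). DESeq2 gave 0.0405 and limma-voom 0.110, and without WT replicate 3 edgeR gave 1.83 with an adjusted p of 0.0277. Col25a1 and Col23a1, with 51 and 41 counts, and the unclassed Col28a1, with 11, were not tested.

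**Figure D4:**
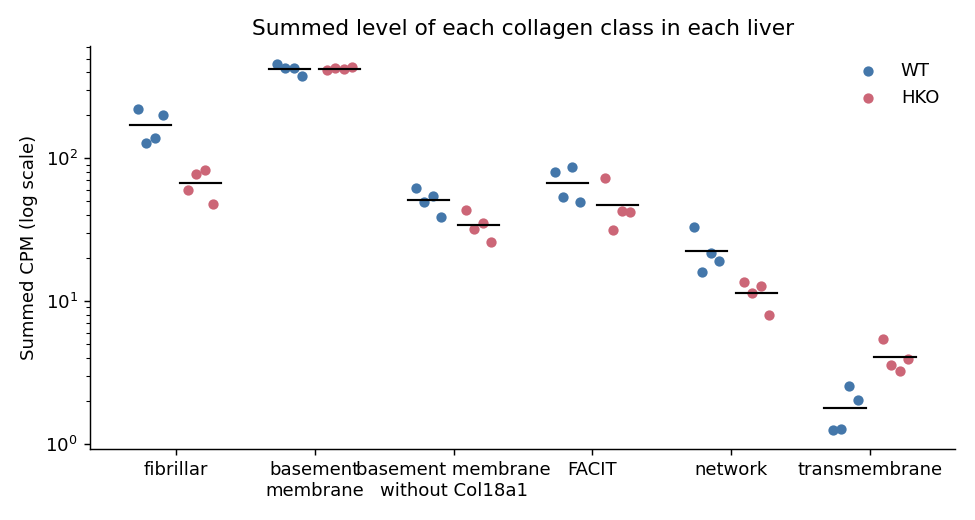
Summed CPM (log axis) of the members of each class in each of 4 WT and 4 HKO livers, with a black line at the mean; the basement membrane class is also shown without Col18a1. The fibrillar sums lie at 128 to 222 in WT and 47.8 to 83.1 in HKO livers, while the basement membrane sums overlap.

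Summed over classes, the fibrillar genes reached 222, 128, 138 and 202 CPM in WT livers and 60.3, 78.1, 83.1 and 47.8 CPM in HKO livers. The basement membrane sum overlapped between the genotypes, at 376 to 456 CPM in WT and 416 to 434 CPM in HKO livers, and Col18a1 made up most of it. The network sum was 15.9 to 32.7 CPM in WT and 7.92 to 13.6 CPM in HKO livers, which did not overlap.

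Over all 38 members the sum was 792, 629, 676 and 650 CPM in WT livers and 568, 550, 562 and 536 CPM in HKO livers, a ratio of the means of 0.807. Without Col18a1, a sum added after the data were seen, the ratio was 0.520. Col18a1 supplied 49.8% to 60.5% of the collagen CPM in WT and 65.6% to 76.3% in HKO livers, and the difference in the total lay in the other members, whose sum had means of 315 and 164 CPM.

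The same livers were extreme for most of the called members. WT liver 1 was the highest WT liver for 6 of the 7 and HKO liver 4 the lowest HKO liver for 5 of the 7, while HKO liver 2 was the highest HKO liver for 5 of the 7. Without WT replicate 1, or without HKO replicate 4, 4 members were called by edgeR in place of 7, and these were Col1a1, Col1a2, Col3a1 and Col15a1 in each case. Those 4 were called in all 8 fits that left out 1 liver, with log2 fold changes of -3.02 to -2.48 for Col1a1 and of -1.16 to -0.92 for Col15a1.

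Mesothelial markers were extreme in some of the same livers. The summed level of 6 mesothelial genes (Msln, Upk3b, Upk1b, Wt1, Gpm6a and Lrrn4), which mark the cells that cover the liver surface, was 26.6, 8.80, 7.86 and 19.6 CPM in WT livers and 6.81, 5.02, 4.79 and 1.11 CPM in HKO livers. WT livers 1 and 4 and HKO liver 4 were thus at the ends for this sum as for Col1a1, Col1a2 and Col3a1. The highest HKO liver differed, liver 1 for this sum and liver 2 for these genes. Of its 4 tested genes none was called by edgeR (2 had an unadjusted p under 0.05, 1 was called by DESeq2 and 0 by limma-voom), and the median log2 fold change was -1.53.

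Without WT replicates 1 and 4 together, an alternative added after the data were seen, the WT mesothelial sums were 7.86 and 8.80 CPM and edgeR called 3 members, Col1a1, Col1a2 and Col3a1, all lower. The WT mesothelial sums in this fit still lay above those of the HKO livers, at 1.1 to 6.8 CPM, so the fit did not equalise this marker list. The part of mesothelial RNA in the collagen differences was not tested.

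**Figure D5:**
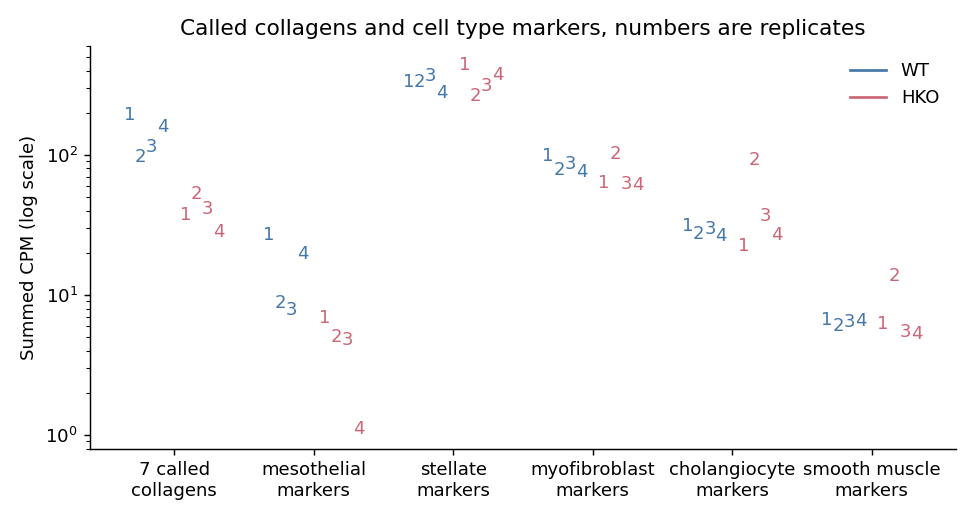
Summed CPM (log axis) of the 7 called collagens and of 5 lists of cell type markers in each liver, where numbers are the replicates of each genotype. The called collagens and the mesothelial markers are highest in WT livers 1 and 4 and lowest in HKO liver 4, and HKO liver 2 stands at 92.6 CPM for cholangiocyte markers.

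The 12 markers of hepatic stellate cells, among them Lrat, Reln and Ecm1, overlapped between the genotypes, with sums of 275 to 366 CPM in WT and 265 to 436 CPM in HKO livers. Their median log2 fold change was 0.04, and 0 of 12 were called by edgeR, 0 had an unadjusted p under 0.05, and 0 were called by DESeq2 or limma-voom. Of the 8 tested markers of activated myofibroblasts, 1 was called lower by edgeR, Tnc, a matrix glycoprotein of injured tissue, at a log2 fold change of -1.48 (SE 0.35, adjusted p = 0.0329). Of these 8 markers, 4 were lower and 0 higher at an unadjusted p under 0.05 by edgeR, 2 were called by DESeq2 and 1 by limma-voom. Their median was -0.54, and the sum was 75.6 to 98.7 CPM in WT livers, 101 CPM in HKO liver 2 and 60.5 to 62.6 CPM in the other HKO livers. Spp1 alone had 63.2 CPM in HKO liver 2, against 24.0 to 36.7 CPM in the other HKO livers and 34.0 to 42.5 CPM in WT livers.

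HKO liver 2 stood apart. Its sum of 8 cholangiocyte markers was 92.6 CPM, against 22.5 to 36.7 CPM in the other 7 livers, and its sum of 6 vascular smooth muscle markers was 13.7 CPM against 5.28 to 6.61 CPM. Without HKO replicate 2 edgeR called 5 members, all lower, with Col12a1 and Col6a1 no longer among them. Portal fibroblast, smooth muscle, cholangiocyte, sinusoidal endothelial and macrophage lists had 0 genes called by edgeR, DESeq2 and limma-voom, with 1 gene at an unadjusted p under 0.05 in the first by edgeR and 0 in the other 4. Their directions differed. All 5 tested portal fibroblast genes had negative log2 fold changes, with a median of -0.61. In the sinusoidal endothelial list 1 of 11 was negative, with a median of 0.47. The medians were 0.18 for smooth muscle, 0.28 for cholangiocyte and -0.02 for macrophage markers. Of 10 hepatocyte markers 5 were called higher by edgeR. The sum of the 10, most of it Alb, overlapped between the genotypes. Alb and Ttr had negative log2 fold changes, at -0.03 and -0.08, and were not called. No striated muscle marker was tested.

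The summed level of the 5 adipocyte genes listed also separated the genotypes, at 44.5 to 101.6 CPM in WT livers against 3.92 to 29.9 CPM in HKO. Plin4, a lipid droplet coat protein, made up most of it, with 42.2 to 90.6 CPM in WT livers against 3.83 to 26.1 CPM in HKO, and its log2 fold change of -2.19 did not pass the test (SE 0.58, adjusted p = 0.0963, edgeR). Cidea, a lipid droplet protein, was called lower by edgeR (adjusted p = 0.0422). The fat cell hormones Adipoq, Lep and Retn were at most 0.0698 CPM in WT livers and at most 2.09 CPM (Lep, HKO liver 1) in HKO. The part of these genes' source cells in the collagen differences was not tested.

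Of 25 tested genes that fold, modify and cross-link collagen, 2 were called lower and 1 higher by edgeR. Over all tested genes the shares were 3.44% and 1.71%. At an unadjusted p under 0.05 edgeR had 7 of the 25 lower and 1 higher, and DESeq2 called 3 and limma-voom 2. Loxl2, a lysyl oxidase that cross-links fibrils, had 9.18, 5.93, 5.82 and 5.06 CPM in WT livers and 4.52, 1.85, 3.27 and 3.06 CPM in HKO livers. The genotypes were apart, with a log2 fold change of -1.01 (SE 0.27, adjusted p = 0.0481). Fkbp14, a prolyl isomerase that assists collagen folding, fell by 0.63 on the log2 scale (adjusted p = 0.0173, edgeR). Ppib, a prolyl isomerase of the endoplasmic reticulum, was higher by 0.41 on the log2 scale (adjusted p = 0.0454, edgeR). The median over the 25 was -0.10.

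Genes of proteins that bind collagen in the matrix, such as decorin, had 0 of 17 tested called by edgeR, with 4 lower and 1 higher at an unadjusted p under 0.05, 2 called by DESeq2 and 0 by limma-voom. Their median log2 fold change was -0.47, and 16 of 17 were negative. The exception was Fn1, fibronectin, which had 1176 to 1240 CPM in WT livers against 1465 to 1477 CPM in HKO, with no overlap, at a log2 fold change of 0.28 (adjusted p = 0.0695, edgeR). The summed level of this list was higher in HKO livers, at 1853 to 1959 CPM against 1630 to 1838 CPM, the reverse of its median. Fn1 made up most of this sum: its mean was 1215 of 1716 CPM among WT livers, and among HKO livers 1471 of 1904. The higher sum thus lay in Fn1, and the other 16 tested genes, all with negative log2 fold changes, did not share it. Of 6 tested collagen receptors 0 were called by edgeR, DESeq2 or limma-voom, with 1 higher at an unadjusted p under 0.05 by edgeR, and their median was 0.07.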

How the data were processed

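Per the submitters' processing notes, the tools were STAR and Partek, named there without versions. The deposited values are estimated counts per gene, not normalized; 80.3% of them are whole numbers. A kit for small RNA appears in the labels beside depletion of rRNA, which leaves the library type uncertain. Library order numbers separated the genotypes, so order and genotype cannot be told apart. Deposited coordinates are given 1-based on GRCm38, with 1 base taken off the listed end; 10 of 38 members then had the start and end of GENCODE M21, and 27 at least 1 of them.

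Counts were rounded and tested with edgeR 4.0.16 in R 4.3.3 (TMM, minimum count 10, robust quasi-likelihood), adjusted by Benjamini-Hochberg over 12395 genes, with an adjusted p under 0.05 as threshold. SE is the size of the log2 fold change over the root of the F statistic. Replicates are mice as labelled, and counting error is not shown separately. As alternatives, limma-voom (limma 3.58.1) and DESeq2 1.42.0 were run, with other scalings, no filter, a replicate block, a fold change above 1.5, and each liver left out in turn. The models were tested on simulated data. A floor of 3 counts equals 0.16 to 0.246 CPM of the raw library totals, before the filter and TMM. On the TMM scale used for the values above, 3 counts were 0.149 CPM in WT liver 3 and 0.255 CPM in HKO liver 4. Values per kb use the union of GENCODE M21 exons.

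Members were named with values per liver if called or among the 2 most abundant of their class, and the others by fold change or counts. Genes and lists were chosen with earlier results of these data known. Python 3.11.15 and matplotlib 3.10.9 drew the plots.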

Additional observations from a re-analysis of the deposited data

Results flagged for a closer look

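Of 66 groups of 4 livers examined by Dixon's test at its 95% level, 5 had a liver apart from the other 3, where chance gives about 1 in 20. Col4a5 was 3.31 CPM in WT replicate 1 against 1.59 to 1.71 in the other WT livers, and 3.09 CPM in HKO replicate 2 against 0.620 to 0.945 in the other HKO livers. Col15a1 was 5.77 CPM in WT replicate 3 against 7.49 to 7.82. The summed activated myofibroblast markers were 101.4 CPM in HKO replicate 2 against 60.5 to 62.6, and the summed vascular smooth muscle markers were 13.7 CPM in that liver against 5.28 to 6.21.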

How the results depend on the processing

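The number of members called lower by edgeR was 7, and it was 4 to 8 when 1 liver was left out, 9 with DESeq2, 5 with limma-voom (without Col5a2 and Col6a1), 8 with total counts, and 7 with RLE or upper quartile scaling, no filter or a fold change above 1.5. Members called higher were 0, with 1 for DESeq2 and 0 to 1 when 1 liver was left out. Genes called over the table were 638, with 1014 for DESeq2, 371 with a fold change above 1.5, and 222 to 599 when 1 liver was left out. The summed CPM ratio of 0.807 was 0.785 to 0.851 when 1 liver was left out.

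With the replicate number as a block, the paired fit called 5 members (Col1a1, Col4a1, Col15a1, Col6a1 and Col6a3) and 470 genes; Col1a2, Col3a1, Col5a2 and Col12a1 were not called (adjusted p = 0.0806, 0.0920, 0.0817 and 0.0588, edgeR). The deviations of same-numbered livers correlated at -0.15 to 0.01, so the numbers did not pair the livers.

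After the data were seen, 7 further fits were added. Of these, 6 changed rounding, robust estimation, library sizes or parametrisation and called 6 or 7 members and 612 to 638 genes. The fit without WT replicates 1 and 4 together called 3 members and 244 genes. In that fit the log2 fold change of Col27a1 was 0.029, a change of sign. The log2 fold change of Col18a1 changed sign with total counts (-0.018). At this depth 17 members could not be tested. The causes of these shifts were not tested.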
